A study of Mus musculus with 8 samples.

Results

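Neat1, Malat1 and 5 genes for paraspeckle proteins (Sfpq, Nono, Pspc1, Rbm14 and Tardbp) were described in mouse embryonic stem cells. They were chosen by name, as the rows of the deposited table that carry these symbols, and all 7 of 7 were found among its 17597 genes. The rule itself uses no measured value, though the group was proposed with earlier results of these data known. The table also holds 1097 transposable element subfamilies, which were not examined here.

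The experiment asked which transcripts respond when METTL3, the enzyme behind most N6-methyladenosine (m6A) in RNA, is removed for about a day. All 8 total RNA libraries came from METTL3_FKBP12^F36V embryonic stem cells of a Cast x 129S background, in which a degron tag lets the small molecule dTAG-13 trigger destruction of the tagged protein. In the untreated group (4 libraries) no dTAG-13 was added, and in the dTAG-13 group (4 libraries) it was present for 26 hours. Each group held clone C3 and clone H5 with 2 libraries per clone, so each group rests on 2 edited clones, and no doxycycline was given to any of them. By the labels the promoter of the endogenous Xist gene had been replaced with a TetOn promoter on the 129S allele in all cells, whereas the study's text places both clones in a line with the inducible promoter on the Cast allele. The cells grew on inactivated mouse fibroblasts as feeders. The deposited table gave a single value per gene for all libraries together, the mean of counts divided by size factors, termed the mean count here. Values of single libraries were therefore not analysed here, no standard deviation can be given, and no difference between treated and untreated cells is reported. What follows are levels in a pool of treated and untreated cells, given as descriptions without a test.

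Paraspeckles are bodies in the nucleus that form around Neat1. The Neat1 gene makes a short and a long RNA from the same start, and the long RNA is the scaffold on which the paraspeckle is built. Malat1 is made by a neighbouring gene and gathers in nuclear speckles, bodies rich in splicing factors. Sfpq, Nono and Pspc1 form the DBHS family of RNA-binding proteins and pair with one another, and Rbm14 is needed to build the body. Tardbp encodes the RNA-binding protein TDP-43, which prefers UG-rich RNA and is known to favour the short form of Neat1 in pluripotent cells.

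The ends of Neat1 and Malat1 are shown first because they carry what sets both RNAs apart from ordinary transcripts. The ends of Malat1 and of long Neat1 are not made by adding a poly(A) tail. An RNA structure resembling a tRNA is cut off downstream by RNase P, and the new end folds back so that an A-rich tract lies in a triple helix with U-rich stretches, which is known to protect it from decay. Both sequences below are of the GRCm38 reference, minus strand of chromosome 19, written as DNA from 5′ to 3′. They are the last 110 bases of the annotated transcript Neat1-201 (chr19:5824708-5824817) and a window of the same length in Malat1-201 (chr19:5795982-5796091). Capitals mark stretches of at least 8 bases found in both windows.
Neat1 end: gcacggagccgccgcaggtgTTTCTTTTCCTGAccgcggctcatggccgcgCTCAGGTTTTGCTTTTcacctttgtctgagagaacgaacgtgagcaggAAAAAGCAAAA
Malat1 end: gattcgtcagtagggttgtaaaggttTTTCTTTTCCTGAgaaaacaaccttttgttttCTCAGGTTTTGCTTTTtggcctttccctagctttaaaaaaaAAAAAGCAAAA
Both windows shared 3 stretches in the same order, of 13, 16 and 11 bases, or 40 of 110 bases. The first and the second are T-rich and the last is the A-rich end. The Malat1 window was chosen among 3 matches of the A-rich pattern (4 or more A, then GC, then A) as the one that shares most letters with Neat1, and the other matches shared at most 8 bases. Neat1-201 is annotated to stop at its A-rich tract, whereas Malat1-201 runs on for 292 bases.

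The positions of the members differ in how cleanly their reads can be assigned. Neat1 (chr19:5824708-5845478, minus strand) is annotated with a single exon of 20771 bases in its longest form, and Malat1 (chr19:5795690-5802672, minus strand) with a single exon of 6983 bases. Between the end of Neat1 and the start of Malat1 lie 22.0 kb. Rbm14 (chr19:4800569-4811634, minus strand) is on the same chromosome, Sfpq (chr4:127021324-127037013, plus strand) and Tardbp (chr4:148612382-148627019, minus strand) are on chromosome 4, Pspc1 (chr14:56720710-56778316, minus strand) is on chromosome 14 and Nono (chrX:101429318-101448591, plus strand) is on the X chromosome. Of the exon bases of Tardbp, 23.3% overlap exons of Masp2 on the opposite strand. The mean count of Masp2 was 19.4 and that of Tardbp 5322. For Rbm14, 18.6% of exon bases are shared with Gm21992 on the same strand and 8.93% with Gm21844 on the opposite strand. For Malat1, 6.49% overlap Gm37376 on the opposite strand, and for Sfpq 4.55% are shared with Gm12940 on the same strand. Smaller overlaps on the same strand, each of 1.23% of exon bases or less, lie in Malat1 (Gm27694) and in Neat1 (Gm27533, Gm27505 and Gm28006). Of all these overlapping genes, only Masp2 had a value under that name. The levels of Tardbp, Rbm14, Malat1, Sfpq and Neat1 are uncertain to the extent of their overlaps. Overlaps on the same strand cannot be resolved by strand. For those on the opposite strand it is not clear whether strand was used in counting.

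Malat1 was the most abundant member and Neat1 the least. To set genes of different length side by side, the authors' mean count was divided by the length of all annotated exons of the gene, in kb. On this scale the level of Malat1 was 3846 per kb and that of Neat1 was 26.4 per kb, a ratio of 146. The median over 17359 genes with a matched length was 39.9 per kb, and 10% of them lay above 506 per kb. Malat1 stood at the 99.2nd percentile of these genes and Neat1 at the 44.5th, below the median gene. Annotated genes without a value are not part of this background, so all percentiles are ranks among genes that had one. The place of Neat1 depends on the length: divided by that of the short model Neat1-202, described next to the mean counts, it stood above the median gene, at the 75.7th percentile. All other genes kept the length of all their exons. This percentile and the later counts with Neat1-202 thus set 1 transcript of Neat1 against whole exon sets, which favours Neat1.

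**Figure D1:**
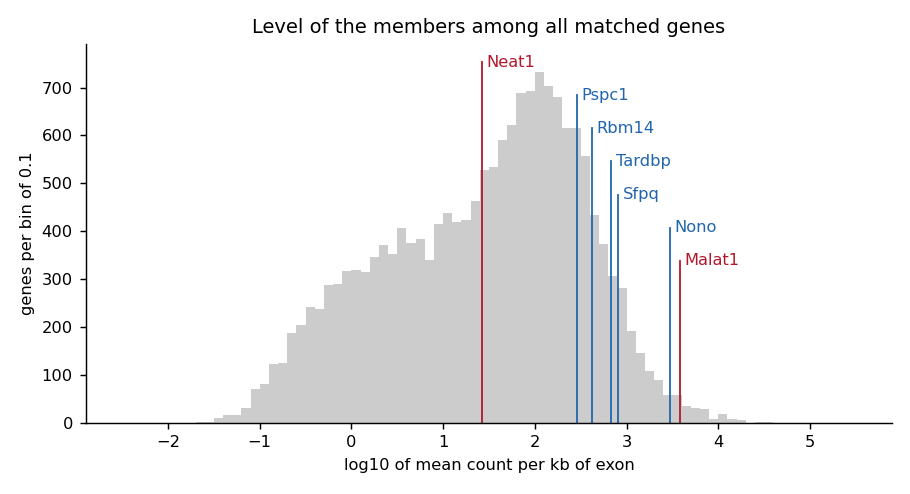
Histogram of the level of 17359 genes, as log10 of the mean count per kb of exon, with a vertical line for each member (red, lncRNAs; blue, genes for proteins; the height of a line has no meaning). Neat1, with its whole exon as the length, lies below the median of 39.9 per kb (with Neat1-202 it would lie above it, at 182 per kb), and the other members lie between 289 and 3846 per kb.

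Before division by length, the authors' mean count was 26860 for Malat1, which ranked 16 among 17597 genes, and 548 for Neat1, at the 68.6th percentile. Malat1 took 50.8% of the reads of all members and Neat1 1.04%. All 7 members together took 0.324% of the mean counts of genes and transposable elements. The exon of Neat1 is the longest of the members, so division by length moved Neat1 down to the 44.5th percentile. The spliced transcript Neat1-202, the annotated model closest to the short form, has 3004 bases and covers the first 15.3% of the gene. If every Neat1 read came from it, the level would be 182 per kb and the ratio of Malat1 to Neat1 would be 21.1. This choice was made after the data were seen. Reads of the short and the long form cannot be told apart in a value per gene.

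Among the DBHS proteins, the RNA for Nono was far more abundant than those of its partners. Nono stood at 2975 per kb (98.8th percentile), Sfpq at 804 per kb (94.0th percentile) and Pspc1 at 289 per kb (83.0th percentile). The level of Nono per kb was 3.70 times that of Sfpq and 10.3 times that of Pspc1, and that of Sfpq was 2.78 times that of Pspc1. The authors' mean counts were 13014 for Nono, 3816 for Sfpq and 1658 for Pspc1, so the order was the same without the division by length. All 3 proteins share the same kind of RNA-binding and pairing region, and Sfpq is the longest of them.

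Rbm14 and Tardbp lay between Sfpq and Pspc1 per kb of all exons. By mean count Tardbp was above Sfpq and Rbm14 below Pspc1, which also held with the shortest transcript as the length. Tardbp stood at 683 per kb (92.7th percentile; mean count 5322) and Rbm14 at 420 per kb (88.1st percentile; mean count 1642). Malat1, Nono, Sfpq and Tardbp, 4 of the 7 members, were above the 90th percentile of genes per kb. The full order per kb was Malat1, Nono, Sfpq, Tardbp, Rbm14, Pspc1 and Neat1. Since the values are pooled, which neighbours in this order differ beyond the spread between libraries cannot be judged.

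The length chosen changed the order in places. With the longest annotated transcript as the length, Nono rose above Malat1, at 5080 against 3846 per kb. With the whole gene span, introns included, Tardbp (364 per kb) lay above Sfpq (243 per kb), and Pspc1, which spans the most bases among the members, came down to 28.8 per kb, close to Neat1 at 26.4 per kb. Neat1 stayed lowest per kb with all exons, the longest transcript and the gene span, and Rbm14 was lowest with the shortest transcript.

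**Figure D2:**
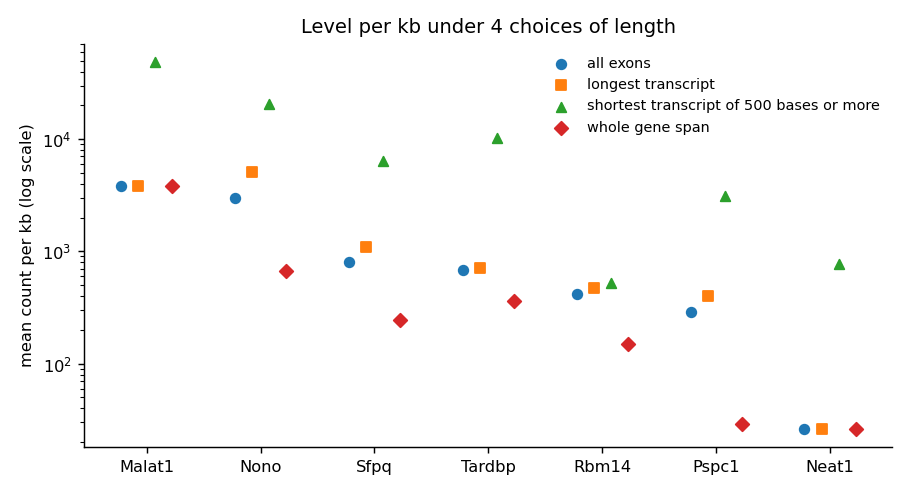
Mean count per kb of each member on a log scale, with the length taken from all exons, from the longest transcript, from the shortest transcript of at least 500 bases or from the whole gene span. Malat1 and Nono are the top pair under each length, and their order turns with the longest transcript (3846 against 5080 per kb).

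Most genes for other paraspeckle components were more abundant per kb than Neat1. Among all 17359 matched genes, Neat1 stood at the 44.5th percentile (75.7th with Neat1-202), the background for this and later counts above it. Of 24 genes for other paraspeckle components, 23 lay above Neat1 (16 with Neat1-202 as the length of Neat1). Of the same 24, 6 lay above Sfpq (94.0th percentile) and 0 above Nono (98.8th percentile). Their median was 389 per kb, against 39.9 per kb over all matched genes. The highest were Hnrnpa1 (2365 per kb), Rbm3 (2110 per kb) and Hnrnpk (2047 per kb). Hnrnpa1 and Hnrnpk encode abundant RNA-binding proteins of the nucleus, and Rbm3 encodes an RNA-binding protein induced by cold. The lowest were Hnrnph3 (125 per kb), Ss18l1 (28.7 per kb) and Rbm4b (23.2 per kb), and Rbm4b alone lay below Neat1 when its whole exon was the length. Hnrnph3 encodes an RNA-binding protein of the same family as Hnrnph1.

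Genes for nuclear speckle components, the bodies in which Malat1 gathers, had a median of 594 per kb. All 13 lay above Neat1 (12 with Neat1-202) and 0 above Malat1. The splicing factor genes Srsf1 (2005 per kb), Srsf2 (1697 per kb) and Srsf5 (1615 per kb) were highest, and Pnn (369 per kb), Acin1 (264 per kb) and Srrm1 (134 per kb) lowest. The genes for the subunits of RNase P and for Elac2, the enzyme that trims the other end of tRNA-like pieces, had a median of 497 per kb over 11 genes, from 125 per kb for Rpp40 to 717 per kb for Pop7. Elac2 itself stood at 512 per kb. All 11 had a value and lay above Neat1 (9 with Neat1-202).

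Other nuclear lncRNAs lay between Neat1 and Malat1 per kb of whole exon. All 6 were above Neat1 and 0 above Malat1, with a median of 135 per kb, but with Neat1-202 as the length of Neat1 only Rian and Tug1, 2 of the 6, were above it. Rian, from the imprinted Dlk1-Dio3 region, was highest at 877 per kb, followed by Tug1 (221 per kb) and Meg3 (163 per kb). Firre stood at 106 per kb, Kcnq1ot1 at 71.7 per kb and Xist at 43.2 per kb, in cells whose inducible Xist allele received no doxycycline. Malat1 was 89.1 times Xist and 53.7 times Kcnq1ot1 per kb, and Xist was 1.64 times Neat1 with the whole exon as the length of Neat1 and 0.237 times with Neat1-202. Xist and Kcnq1ot1 have genes on the opposite strand, and their levels carry the uncertainty on strand named above.

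The markers of embryonic stem cells were high, with a median of 2160 per kb over 10 genes, and 9 of them were above the 90th percentile. Genes listed as fibroblast markers, to look for feeder RNA, had a median of 2.49 per kb over 12 genes. Whether feeders or the stem cells were the source of their RNA was not tested. The levels of these genes ran from 0.0882 per kb for Postn to 806 per kb for Sparc, with Vim at 437 and Fn1 at 423 per kb. Col1a1 stood at 3.02 per kb, Col1a2 at 1.11 per kb and Col3a1 at 0.853 per kb. Of the 12 fibroblast markers, 5 lay above Neat1 per kb (3 with Neat1-202). Among all matched genes Neat1 stood at the 44.5th percentile (75.7th with Neat1-202). The part of feeder RNA in the level of Neat1 was not tested. In a bulk sample, fewer cells that make an RNA and less RNA per cell cannot be told apart.

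**Figure D3:**
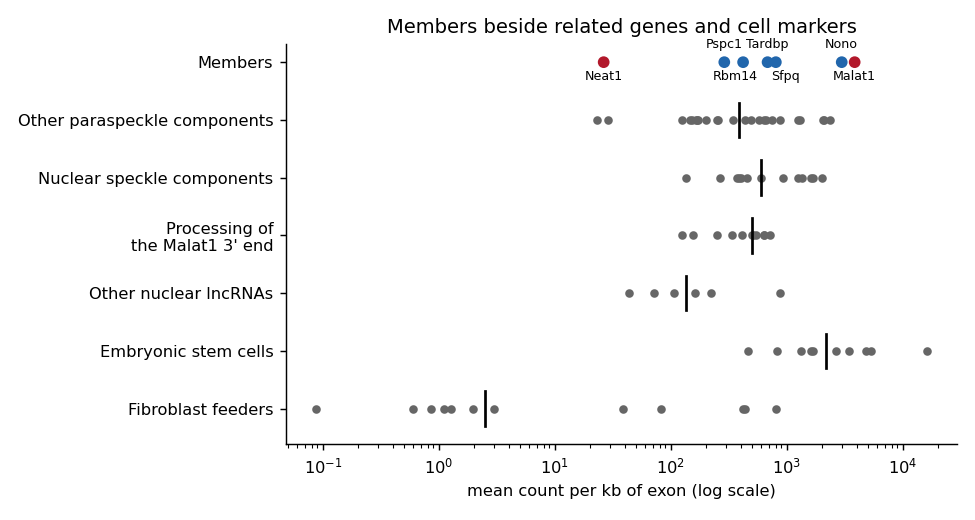
Mean count per kb of exon on a log scale for the members (red, lncRNAs; blue, genes for proteins) and for 6 gene lists, with 1 point per gene and a bar at the median of each list. Neat1, at 26.4 per kb of its whole exon (182 with Neat1-202), lies to the left of nearly all genes of the first 4 lists, and Malat1, at 3846 per kb, to the right of all of them.

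Around the locus, Malat1 stood far above its neighbours, and Neat1 stood among them when its whole exon was the length. Within 100 kb on either side of the pair, 24 annotated genes were considered. Of these, 13 had a value and a matched length, Neat1 and Malat1 among them. The 11 others were compared, so annotated genes without a value are not part of what follows. Their levels ran from 0.591 per kb for Ltbp3 to 142 per kb for Fam89b, with a median of 21.6 per kb. Of the 11, 5 lay above Neat1 (44.5th percentile of all matched genes) and 0 above Malat1 (99.2nd percentile). With Neat1-202 as the length of Neat1 (75.7th percentile), 0 of the 11 lay above it. Frmd8, whose annotated end lies nearest to the start of Neat1, stood at 98.8 per kb. Pola2 (139 per kb) and Dpf2 (105 per kb) followed Fam89b, and Cdc42ep2 (3.14 per kb) and Kcnk7 (2.17 per kb) were the lowest beside Ltbp3.

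**Figure D4:**
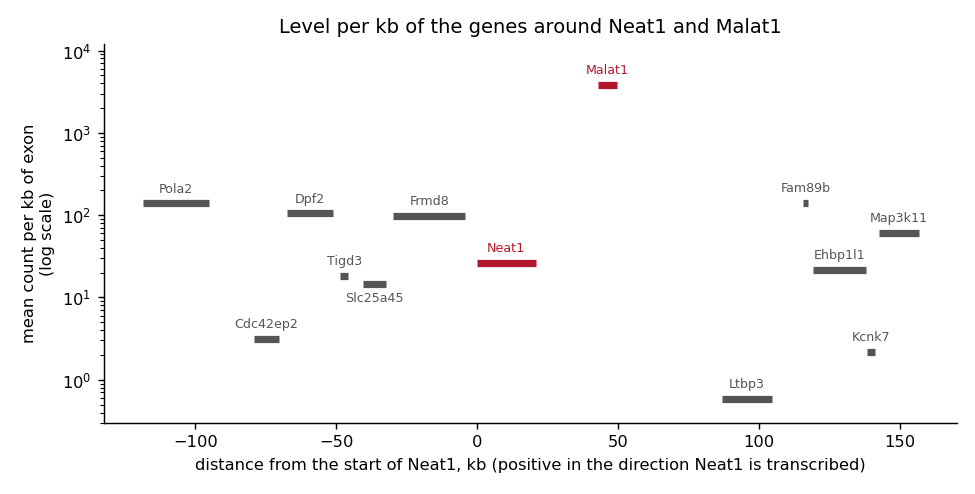
The 11 compared genes around Neat1 and Malat1, with the distance from the start of Neat1 in kb on the horizontal axis and the mean count per kb of exon on a log scale on the vertical axis (each bar spans a gene). Malat1, at 3846 per kb, is far above the next bar, Fam89b at 142 per kb.

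The sequences of the members were searched for GGACT, a common form of the motif at which METTL3 writes m6A, on the RNA strand of the longest annotated transcript, with overlapping matches counted. All 7 members held it, as did 94.1% of 16258 transcripts of at least 1000 bases, so its presence does not set them apart. Neat1 held 23 matches (1.11 per kb), Malat1 held 9 (1.29 per kb) and Nono held 5 (1.95 per kb, the 88.7th percentile). The median over transcripts was 1.04 per kb, and these 3 members lay above it. Sfpq held 3, Tardbp 4, Rbm14 2 and Pspc1 1, the last at 0.243 per kb (6.91st percentile). A match is a run of letters and says nothing of whether the base is methylated, which was not measured in these libraries.

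The matches were counted along both lncRNAs, and whether their spacing is even was not tested. Of the 14 bins of 500 bases along Malat1, 9 held none, and a single bin held 4 of the 9 matches. In Neat1, 25 of 42 bins held none. The first 3172 bases, the stretch that Neat1-202 spans, held 6 matches (1.89 per kb) and the remaining 17599 bases held 17 (0.966 per kb). The tightest groups are printed with GGACT in capitals, from chr19:5801278-5801568 in Malat1 and chr19:5844955-5845137 in Neat1 (GRCm38, minus strand). Each is the shortest span with as many matches as the fullest bin of that RNA. The fullest bin of Neat1 lies elsewhere, from base 20001 to base 20500 near the end of the long form, and held 3.
Malat1 GGACT group: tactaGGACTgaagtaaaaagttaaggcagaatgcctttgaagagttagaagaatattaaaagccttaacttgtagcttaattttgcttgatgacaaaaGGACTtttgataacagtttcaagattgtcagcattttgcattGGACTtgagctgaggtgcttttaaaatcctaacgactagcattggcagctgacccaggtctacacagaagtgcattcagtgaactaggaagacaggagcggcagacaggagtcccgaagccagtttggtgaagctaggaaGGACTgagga
Neat1 GGACT group: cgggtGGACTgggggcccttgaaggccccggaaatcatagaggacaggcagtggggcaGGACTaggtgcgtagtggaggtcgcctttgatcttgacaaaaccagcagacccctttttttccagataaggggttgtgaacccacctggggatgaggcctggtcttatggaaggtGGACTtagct
The 4 printed sites of Malat1 lie within 281 bases. The 3 printed sites of Neat1 lie within 173 bases, near the start of the RNA that the short and the long form share.

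Neat1 held more TG-rich letters per kb than the other members. These letters are UG in the RNA and are the kind of sequence TDP-43 binds. TGTGTG, counted on the RNA strand with overlaps, occurred 48 times in Neat1 (2.31 per kb, the 92.1st percentile; median over transcripts 0.559 per kb). It occurred 3 times in Malat1, 4 times in Pspc1, 6 times in Tardbp itself and 1 time in Nono, and not in Sfpq or Rbm14, while 77.8% of the 16258 transcripts held it. Per kb, Pspc1 (0.972, 71.9th percentile) and Tardbp (0.802, 64.7th percentile) also lay above the median. Malat1 (0.430) and Nono (0.390) lay below it, as did Sfpq and Rbm14. Neat1 was the only member with 6 or more TG in a row, which 8.74% of transcripts had. The next longest run among the members was 10 bases in Pspc1 (87.2nd percentile). A longer transcript has more room for a run, and the transcripts were not matched by length. The 12 consecutive TG of Neat1, a run of 24 bases, begin at base 19429 of Neat1-201 (printed here from chr19:5826009-5826068, minus strand, the repeat in capitals).
Neat1 TG run: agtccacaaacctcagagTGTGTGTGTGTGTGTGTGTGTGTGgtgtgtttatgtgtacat
In the first 3172 bases of Neat1 3 of the 48 matches were found (0.946 per kb), and in the rest 45 (2.56 per kb). Neighbouring bins close to the end of the long form, from base 19001 to base 20000, held 18. The bin from base 19001 to base 19500 held 10 of these and contains the printed repeat. Since overlapping matches are counted, that single repeat gave all 10 matches of this bin, and they are not separate sites. The stretch of Neat1-202 spans 15.3% of the gene, so most matches would lie beyond it by length alone. Per kb the matches were denser beyond it, with the overlapping matches of the repeat included. Whether the 2 stretches differ was not tested.

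**Figure D5:**
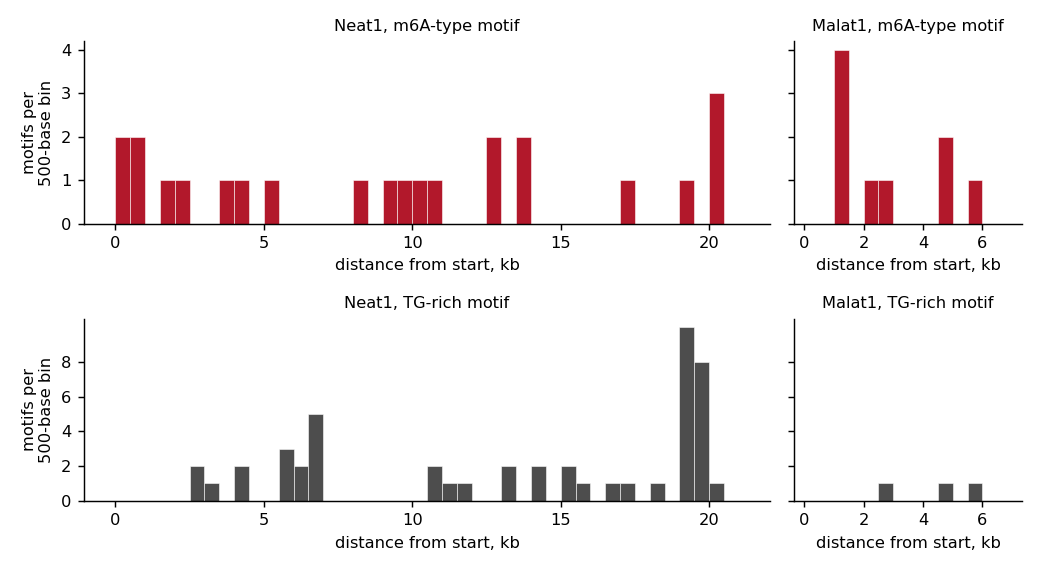
Number of GGACT (upper row, named m6A-type motif) and TGTGTG (lower row, named TG-rich motif) per 500-base bin along Neat1 and Malat1, with the distance from the start of each RNA in kb. GGACT peaks at 4 in a bin of Malat1, and TGTGTG at 10 and 8 in neighbouring bins near the end of Neat1. All matches of the bin with 10 lie in the single long TG repeat, whose overlapping matches are each counted.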

How the data were processed

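Total RNA (by the molecule label and the study's methods; the labels' extraction protocol is one for chromatin RNA) was sequenced as pairs in 8 libraries. The authors discarded reads from ribosomal RNA (bowtie2), aligned the rest to mm10 with strain variants masked (STAR), kept unique alignments, removed duplicates (Picard) and counted with default settings of TEtranscripts on UCSC annotation, which calls DESeq2. Unique alignment drops reads that match a processed copy of a gene equally well, and their number was not tested. The default ignores strand, while the name of the table carries the word reverse, so the use of strand is uncertain. Each group was 4 libraries, which the study describes as repeats of independent clones, with the wells of a replicate split between conditions from a common batch of cells.

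The deposited signal column is the authors' mean over all libraries of counts divided by size factors, with no SD. The other 5 columns hold the authors' own comparison of the groups (log2 fold change, its standard error, a statistic, p and adjusted p) and were not used. The size factors were read from the low values. With 8 factors of 0.702 to 1.44, 1503 of 1503 values under 1.5 were sums of whole reads (tolerance 2e-08). The highest and the lowest factor had a ratio of 2.05, between libraries that the table does not name. These factors scale the counts and are not totals of reads. Reading them from low values was tested on simulated data. The mean counts added up to 16292717.

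Exon lengths came from GENCODE vM21 (GRCm38, the build of mm10), which may differ from the annotation the authors used. Of 17597 genes, 16660 matched by symbol and 699 through RefSeq synonyms, 98.6% in all. Levels per kb, percentiles and motif counts were computed with Python 3.11.15, numpy 2.4.6 and pandas 2.3.3. Intervals came from scipy 1.17.1 (exact binomial, 95%, without the spread between libraries) and figures from matplotlib 3.10.9. The members and lists were chosen with earlier results of these data known. Genes that could be named were the members and the 3 highest and 3 lowest per kb of each list and of the genes within 100 kb, and not all of these are named. Frmd8, Elac2, Col1a1 and Col1a2 fall outside this rule and were chosen for their position or role after values were seen. Some genes of the lists and of the window are not reported here. The alternatives changed the length, the background, the denominator and the scale.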

Additional observations from a re-analysis of the deposited data

How the results depend on the processing

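Of 47 values recomputed under another choice, 37 moved by more than an exact 95% binomial interval, taken from the rounded mean counts for levels, ratios and the share, and from the number of genes for percentiles. For levels, ratios and the share, the interval treats the mean over 8 libraries as 1 count, so it is wider than the counting error of all reads. For percentiles it treats genes as draws and is not an error of reads. In no case does it cover the spread between libraries. For Neat1 and Malat1 the longest transcript and the gene span equal the length of all exons, so those values could not move. A change of divisor is no error of counting, so the number that moved is not a measure of robustness. With the longest transcript as the length, the level per kb was 1101 for Sfpq, 5080 for Nono, 403 for Pspc1, 468 for Rbm14 and 712 for Tardbp. With the shortest transcript of at least 500 bases, it was 771 for Neat1, 48309 for Malat1, 6359 for Sfpq, 20625 for Nono, 3140 for Pspc1, 519 for Rbm14 and 10293 for Tardbp. These short models are fragments in most members, which inflates the level per kb by construction. With the gene span, it was 243 for Sfpq, 675 for Nono, 28.8 for Pspc1, 148 for Rbm14 and 364 for Tardbp. Neat1 stood at 182 per kb with Neat1-202, an alternative chosen after seeing the data. Against the genes whose mean count reached 10, the percentile by mean count was 59.3 for Neat1, 94.3 for Sfpq, 99.3 for Nono, 83.6 for Pspc1, 83.4 for Rbm14 and 96.5 for Tardbp. Among protein-coding genes, it was 66.7 for Neat1, 86.6 for Pspc1 and 86.4 for Rbm14. The members held 0.363% of the mean counts of genes alone. By mean count, the ratio was 49.0 for Malat1 to Neat1, 0.293 for Sfpq to Nono, 2.3 for Sfpq to Pspc1, 7.85 for Nono to Pspc1 and, added after seeing the data, 2.06 for Malat1 to Nono. With the longest transcript, it was 0.217 for Sfpq to Nono, 12.6 for Nono to Pspc1 and 0.757 for Malat1 to Nono, the last below 1 where the exon union gave 1.29. With Neat1-202, the ratio of Malat1 to Neat1 was 21.1. Each value moved because the divisor or the background changed.

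No paired analysis was possible because the table used here holds no values per library. Leaving out each replicate was not run for the same reason, and the identity between the Sfpq, Nono and Pspc1 proteins was not run because no protein sequences were used. The spread between libraries is unknown, so no order of levels carries an error.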
